A study of Drosophila melanogaster with 6 samples.

Results

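Antimicrobial peptides are short secreted or intracellular proteins that kill bacteria and fungi, and 10 of their genes were followed here, gene by gene, in the *Drosophila* hindgut: the attacins *AttA*, *AttB*, *AttC* and *AttD*, the diptericins *DptA* and *DptB*, drosocin (*Dro*), metchnikowin (*Mtk*), defensin (*Def*) and drosomycin (*Drs*). They were taken by symbol, and all 10 were found among the 17617 genes of the files. RNA came from dissected hindguts of adult females that were 3 to 5 days old when the experiment began, with 100 hindguts in each of 3 control and 3 *RasV12* libraries. All flies carried byn-G4 (*byn-Gal4*, which drives expression in hindgut enterocytes), tub-G80ts (a temperature-sensitive repressor of Gal4) and U-gfp, and the *RasV12* flies also carried U-RasV12, a constitutively active form of the GTPase Ras. All were reared at 18°C and moved to 29°C for 7 days, so the temperature shift and GFP are common to both groups. The labelled cell types are enterocytes and muscle, and the whole dissected organ was used, with its muscle coat.

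In flies the transcription of these genes is controlled by a pair of NF-κB pathways. In the Imd pathway, peptidoglycan of the type found in Gram-negative bacteria is sensed by PGRP-LC and PGRP-LE and the signal ends on the transcription factor Relish. In the Toll pathway, the ligand Spätzle activates the Toll receptor and the signal ends on Dif and Dorsal. The diptericins, attacins and drosocin are the classic readouts of Imd, drosomycin is the classic readout of Toll in the fat body, and metchnikowin and defensin respond to both. In gut epithelia Imd is the main pathway of the local response, and the fat body and hemocytes are the main sources of the peptides in the blood.

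The libraries were QuantSeq 3′ libraries, which give a read from the end of a polyadenylated transcript, so that levels do not grow with gene length. Values are normalized counts, that is, read counts that the authors multiplied by 1 factor per library and rounded. Totals ran from 932389 to 1031380 per library, and the factors recovered from the whole numbers that occur imply 686569 to 1402435 reads, with the fewest in control replicate 1. The hindgut transcription factor genes *byn* and *otp* were present in every library, at 60 to 450 and 14 to 55, as were all 6 muscle markers. Markers of the tissue's own cells differed between genotypes: *byn* fell by 1.82 on the log2 scale (limma, adjusted p = 0.00153), *otp* fell, *drm* rose by 2.45 (limma, adjusted p = 7.47e-05) and *bowl* did not pass. The call of *otp* (limma, adjusted p = 0.0191) was lost without control replicate 1 or *RasV12* replicate 2, with an adjusted p of at most 0.0841. The 6 muscle markers all fell (each with a limma adjusted p under 0.05), with a summed level of 5385 to 6622 in control and 1700 to 2047 in *RasV12* libraries. The part of this difference in makeup in the results below was not tested. Genotypes were compared with limma on log2(value + 1) over the 7155 genes with a value above 9 in at least 1 library, and every fold change below is on that scale, which understates the change of low genes. All 10 genes entered the test, but *AttD* did so through its *RasV12* libraries alone. The p-values measure the spread between pools of hindguts, and in whole tissue a change in RNA per cell and a change in the number of cells of a type cannot be told apart.

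*RasV12* hindguts had more mRNA of 7 of the 10 peptide genes and less of 1. *AttA*, *AttB*, *AttD*, *DptA*, *DptB*, *Def* and *Mtk* rose, *Drs* fell, and *Dro* and *AttC* did not pass an adjusted p of 0.05. Over all genes tested, 16.7% passed in either direction, 9.04% as rises and 7.7% as falls. The 3 *RasV12* libraries did not overlap the 3 control libraries for 8 of the 10 genes, against 32.9% of all genes tested. The median log2 fold change of the 10 genes was 4.05, beside 0.02 over all genes tested. The genes were listed with results of these libraries known, and the study itself drew *AttA*, *AttB*, *AttD* and *Dro* from them, so these counts describe the list and are no independent evidence of its direction.

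**Figure D1:**
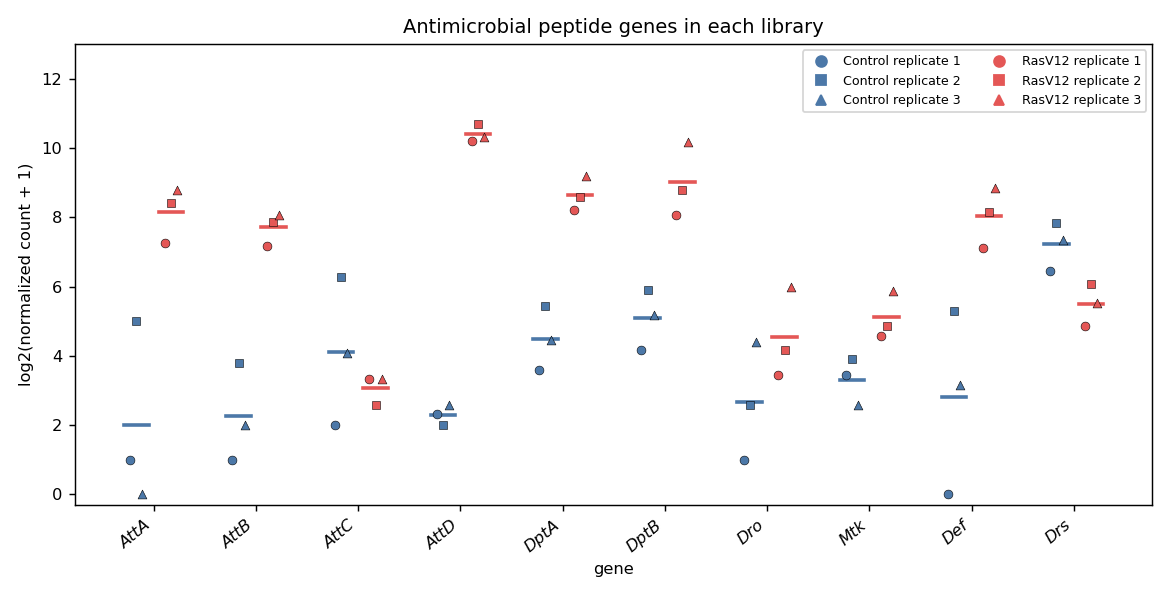
Level of each of the 10 antimicrobial peptide genes in each library, as log2(normalized count + 1). Points are single libraries (blue control, red RasV12, shape gives the replicate), and bars are means of the 3 log2 values. The groups are apart for 8 genes, with *Drs* the only one of these 8 lower in RasV12, and overlap for *AttC* and *Dro*.

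The normalized counts of the 10 genes together were 135, 508 and 275 in control against 2226, 3453 and 4355 in *RasV12* replicates 1, 2 and 3. This was 0.014% to 0.0545% of a control library and 0.223% to 0.422% of a *RasV12* library. The leading gene differed between genotypes. *Drs* had the highest value of the 10 genes in each of the 3 control libraries, where it held 44.7% to 64.4% of their sum. *AttD* had the highest value in each of the 3 *RasV12* libraries, with 29.1% to 52.3% of the sum, and *Drs* held at most 1.91% there.

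*AttD* encodes an attacin that, unlike the other 3, lacks a signal peptide. The gene (FBgn0038530) has 2 exons, at positions 17625268 to 17626086 of chromosome 3R (BDGP6.54), away from the other attacins on 2R, and no annotated gene overlaps it. Its normalized counts were 4, 3 and 5 in control against 1165, 1653 and 1269 in *RasV12* replicates 1, 2 and 3. The control values correspond to 3, 3 and 4 reads. Control hindguts were near the limit of detection and *RasV12* hindguts far above it, with little spread within either group. *AttD* rose by 8.09 on the log2 scale (limma, standard error 0.28, adjusted p = 7.31e-10), the 4th largest rise of the 7155 genes. It entered the test through its *RasV12* libraries alone, so its passing the test and this rank are a description. With any 1 library left out the change stayed between 7.94 and 8.24.

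*AttA* (FBgn0012042) and *AttB* (FBgn0041581) encode near-identical attacins, secreted glycine-rich peptides that act on Gram-negative bacteria. They lie beside each other on the plus strand of chromosome 2R, from 14747362 to 14748215 and from 14749223 to 14750165, with 1007 bp between them. Since it is not stated how reads that match both copies were treated, reads from either copy may have been assigned to the other, and the separate values are uncertain.

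For *AttA*, control replicates 1, 2 and 3 had 1, 31 and 0 normalized counts against 151, 342 and 443 in *RasV12* replicates 1, 2 and 3. For *AttB* the values were 1, 13 and 3 against 144, 234 and 269. Control replicate 2 was the highest control library for both genes, yet it stayed below every *RasV12* library. Taken as 1 gene, the pair had 2, 44 and 3 normalized counts in control against 295, 576 and 712 in *RasV12* replicates. This sum rose by 5.93 on the log2 scale (limma, standard error 0.76, adjusted p = 0.000149). *AttA* alone rose by 6.15 (limma, standard error 0.93, adjusted p = 0.000532), and *AttB* alone by 5.44 (limma, standard error 0.57, adjusted p = 3.06e-05). The size of the change depended on the control libraries. Without control replicate 2 it was 7.65 for *AttA*, 6.21 for *AttB* and 7.16 for the sum. Without control replicate 1 the change of *AttB* was 4.81 and that of the sum 5.21, and without control replicate 3 that of *AttA* was 5.15.

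The ratio of *AttA* to *AttB* was 1.05, 1.46 and 1.65 in *RasV12* replicates 1, 2 and 3, where both had over 100 normalized counts. In control the ratio was 1.00, 2.38 and 0.00, from values too low to compare. The annotated *AttB* locus ends directly before *Rpn6*, a proteasome subunit gene, which had 73, 44 and 47 normalized counts in control against 62, 47 and 54 in *RasV12* hindguts, so that its groups overlapped.

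*AttC* (FBgn0041579, chromosome 2R, 13393705 to 13394667) encodes the third secreted attacin and was the attacin that did not pass. It had 3, 76 and 16 normalized counts in control against 9, 5 and 9 in *RasV12* replicates 1, 2 and 3. The *RasV12* values lay inside the control range, and control replicate 2 stood far above the other libraries. Its log2 fold change was −1.04, with a 95% interval from −2.82 to 0.73 (limma, adjusted p = 0.433). Without control replicate 2 it was 0.033, and without control replicate 1 it was −2.10 (limma, adjusted p = 0.0515). The upper end of the interval lay below the lower ends of the 95% intervals of *AttA* (4.16), *AttB* (4.21) and *AttD* (7.48). *CG4744*, which overlaps *AttC* on the opposite strand, was listed at 0 in all 6 libraries.

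The diptericins are glycine-rich peptides active against Gram-negative bacteria, and *DptA* in particular is known for resistance to *Providencia*. *DptA* (FBgn0004240, chromosome 2R, 18865765 to 18866260) and *DptB* (FBgn0034407, 18867391 to 18867895) lie 1130 bp apart on the same strand. *DptA* had 11, 42 and 21 normalized counts in control against 293, 381 and 581 in *RasV12* replicates 1, 2 and 3. Every *RasV12* library exceeded the highest control library several-fold. Its mean was 24.7 ± 15.8 in control and 418 ± 148 in *RasV12* hindguts (SD, n = 3 each). On the log2 scale it rose by 4.16 (limma, standard error 0.41, adjusted p = 1.74e-05).

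*DptB* had 17, 59 and 35 normalized counts in control against 265, 441 and 1161 in *RasV12* replicates. The *RasV12* libraries were uneven, with replicate 3 far above the other 2, but they did not overlap the control. It rose by 3.93 on the log2 scale (limma, standard error 0.49, adjusted p = 0.000136). Without *RasV12* replicate 3 the rise was 3.34. The ratio of *DptA* to *DptB* was 0.65, 0.71 and 0.60 in control and 1.11, 0.86 and 0.50 in *RasV12* replicates, so the balance of the pair overlapped between genotypes. *CG43109*, which overlaps *DptB* on the opposite strand, had at most 1 normalized count in any library.

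*Def* (FBgn0010385, chromosome 2R, 10054178 to 10054576, minus strand) encodes a cysteine-rich peptide that acts mainly on Gram-positive bacteria. It had 0, 38 and 8 normalized counts in control against 138, 286 and 457 in *RasV12* replicates 1, 2 and 3. The control libraries were far apart, and the lowest *RasV12* library was still above the highest of them. The rise was 5.22 on the log2 scale (limma, standard error 0.93, adjusted p = 0.00182), and it ranged from 3.81 without control replicate 1, where *Def* was listed at 0, to 6.46 without control replicate 2. *Def* lies in an intron of *magu*, on the opposite strand. *magu* had 31, 25 and 21 normalized counts in control against 21, 12 and 22 in *RasV12* hindguts, and its groups overlapped.

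*Mtk* (FBgn0014865, chromosome 2R, 15408846 to 15409113) encodes a proline-rich peptide against fungi and Gram-positive bacteria. It had 10, 14 and 5 normalized counts in control against 23, 28 and 58 in *RasV12* replicates 1, 2 and 3. The groups did not overlap, but the gap between them was small. It rose by 1.79 on the log2 scale (standard error 0.49) with a limma adjusted p of 0.0247, which became 0.0676 without *RasV12* replicate 2. Without *RasV12* replicate 3 the change was 1.40 and the adjusted p 0.144. *Mtk* lies in an intron of *Stacl* on the same strand. *Stacl* had 14, 25 and 21 normalized counts in control against 5, 4 and 3 in *RasV12* hindguts, so that its *RasV12* libraries were the lower ones.

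*Dro* (FBgn0010388, chromosome 2R, 14745961 to 14746714) encodes drosocin, a proline-rich peptide against Gram-negative bacteria, and lies 647 bp before *AttA* on the same strand. It had 1, 5 and 20 normalized counts in control against 10, 17 and 63 in *RasV12* replicates 1, 2 and 3. The groups overlapped, since control replicate 3 exceeded *RasV12* replicates 1 and 2. Its log2 fold change was 1.88, with a 95% interval from 0.13 to 3.64, and limma's adjusted p was 0.139. It passed without control replicate 3 (2.75, limma, adjusted p = 0.0123). With limma's p it also passed the thresholds the study used (log2 change over 1 with p under 0.05 before adjustment), as did 22.2% of all genes tested. *Dro* and *AttA* are neighbours, but control replicate 3, the highest control library for *Dro*, had no *AttA*.

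**Figure D2:**
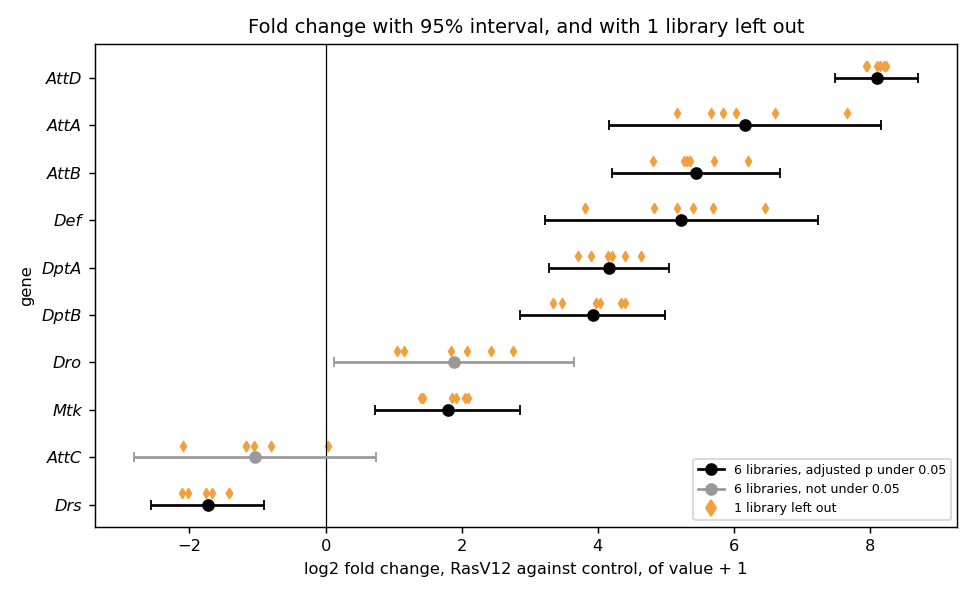
Log2 fold change of each gene between RasV12 and control hindguts on the value + 1 scale, with its 95% interval from limma (black where the adjusted p was under 0.05, grey where it was not) and the estimates with 1 of the 6 libraries left out (orange diamonds). *AttD* stayed between 7.94 and 8.24 whichever library was left out, while *AttC* ran from −2.10 to 0.033.

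*Drs* (FBgn0283461, chromosome 3L, 3369556 to 3369942) encodes drosomycin, an antifungal peptide, and was the gene of the 10 that fell. It had 87, 227 and 162 normalized counts in control against 28, 66 and 45 in *RasV12* replicates 1, 2 and 3. The highest *RasV12* library lay below the lowest control library. The mean was 159 ± 70.1 in control and 46.3 ± 19.0 in *RasV12* hindguts (SD, n = 3 each), a ratio of means of 0.292. *Drs* fell by 1.73 on the log2 scale (limma, standard error 0.39, adjusted p = 0.00782), and with 1 library left out the change ran from −2.11 to −1.42 with an adjusted p of at most 0.0452. Without a variance trend over the mean the adjusted p was 0.0643.

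Apart from the hindgut, *Drs* is known to be expressed in the fat body and in the female reproductive tract. All tested markers of both tissues also had lower mean log2 values in *RasV12* hindguts, but only some of them passed. Summed over 7 fat body markers, normalized counts were 3942 to 10425 in control and 2104 to 4119 in *RasV12* libraries. Of the 4 that could be tested, the yolk protein genes *Yp1* and *Yp2* fell (log2 fold changes −1.36 and −1.15, limma, adjusted p = 0.0128 and 0.0219), *Yp3* and *apolpp* did not pass, and *Fbp1* and *Fbp2* were at 0 throughout. Neither passed without *RasV12* replicate 1 or 2, nor *Yp2* without control replicate 2, with an adjusted p of at most 0.112. Summed over 5 female reproductive tract markers, the range was 30 to 236 in control and 0 to 10 in *RasV12* libraries. The control sums were 52, 30 and 236 in replicates 1, 2 and 3, lowest in the replicate where *Drs* was highest. None of the 5 was at 0 throughout. Of the 3 tested, *Send1* fell by 3.00 on the log2 scale (limma, adjusted p = 0.0267), and *Send2* and *Vm26Aa* did not pass. The call of *Send1* was lost without control replicate 1, control replicate 3 or *RasV12* replicate 1, with an adjusted p of at most 0.0859.

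Per 100 normalized counts of *Yp1*, *Drs* was 3.81, 4.44 and 8.56 in control and 3.18, 6.90 and 2.88 in *RasV12* replicates. On this ratio the genotypes overlapped. Dividing by any gene that fell to a similar degree can do this, so the overlap is a description and points to no tissue. The hindgut gene *byn*, for example, fell by 1.82 on the log2 scale. The part of these tissues in the fall of *Drs* was not tested. The 8 hemocyte markers found in the files, *Hml*, *NimC1* and *eater* among them, summed to at most 4 normalized counts in any library, and *NimC1*, *He* and *eater* were at 0 in all 6. Of 11 midgut enzyme genes, 9 were under 10 in every library, and the sum was 14 to 145 in control and 116 to 208 in *RasV12* libraries. The sum of 4 Malpighian tubule markers was 11 to 30 in control and 41 to 58 in *RasV12* libraries, with *Irk1* rising by 1.59 on the log2 scale (limma, adjusted p = 0.0251, and at most 0.126 with 1 library left out) and *Uro*, a defining marker, at 3 or less throughout. The part of these tissues in the rises was not tested.

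**Figure D3:**
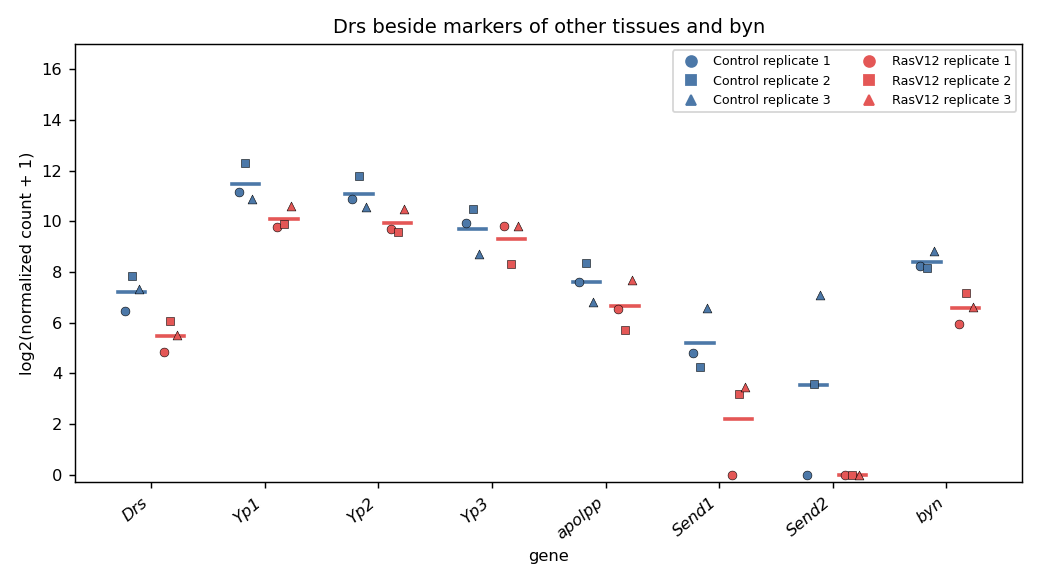
Level of *Drs* in each library beside fat body markers (*Yp1*, *Yp2*, *Yp3*, *apolpp*), female reproductive tract markers (*Send1*, *Send2*) and the hindgut gene *byn*, as log2(normalized count + 1). Points are single libraries (shape gives the replicate) and bars are means of 3 log2 values. *Drs*, *Yp1*, *Yp2*, *Send1* and *byn* are lower in every RasV12 library than in every control library.

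Libraries of the same genotype differed in the same way for most of the 10 genes. *RasV12* replicate 3 was the highest *RasV12* library for 7 of them (*AttA*, *AttB*, *DptA*, *DptB*, *Dro*, *Mtk* and *Def*), but *AttD* and *Drs* were highest in *RasV12* replicate 2. Control replicate 2 was the highest control library for 8 of them, the exceptions being *AttD* and *Dro*. It also had the highest sum of the fat body markers, 10425 against 5370 and 3942 in control replicates 1 and 3. Most of that sum came from the yolk protein genes *Yp1*, *Yp2* and *Yp3*, at 5113, 3562 and 1420 in control replicate 2. The part of fat body RNA in these control values was not tested. Without control replicate 2, the 7 rises and the fall of *Drs* all still passed an adjusted p of 0.05.

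Other antimicrobial peptide genes were set beside the 10. Of the 4 cecropin genes and *Listericin*, which encode further antibacterial peptides, 3 rose and the other 2 did not pass, with a median log2 fold change of 3.10. Over all genes tested, 9.04% passed as rises. *CecB* was at 0 in all 3 control libraries, with 58, 25 and 34 normalized counts in *RasV12* replicates. *CecC* had 0, 0 and 1 in control against 125, 103 and 116 in *RasV12* replicates. Both entered the test through their *RasV12* libraries alone, so their passing it is a description. *Listericin* rose by 3.10 on the log2 scale (limma, adjusted p = 9.42e-07), from 350, 460 and 475 normalized counts to 4659, 3602 and 2895. Like *AttD*, and unlike most of the 10 genes, these 3 were not highest in *RasV12* replicate 3. *CecA1* overlapped between genotypes, with 0, 95 and 134 in control against 127, 145 and 233 in *RasV12* replicates (limma, adjusted p = 0.161).

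Of the tested peptides that depend on Toll in the fat body, 6 of 13 fell and none rose. Of 15 bomanin, daisho and baramicin genes listed, 14 were found under their current identifiers and 13 were tested. All 13 had lower mean log2 values in *RasV12* hindguts, 6 of them with an adjusted p under 0.05, against 7.7% of all genes tested as falls. The groups did not overlap for 5 of the 13, against 32.9% of all genes tested, 15.3% as falls. The other 7, among them *BomS1*, *BomS3* and *BomT2*, did not pass, and the median log2 fold change was −1.33. *BomS2* had 490, 495 and 84 normalized counts in control against 59, 50 and 43 in *RasV12* replicates (log2 fold change −2.42, limma, adjusted p = 0.00642). Without control replicate 3, the lowest control library, it was −3.27, and without a variance trend its adjusted p was 0.0705. *BaraA1* fell by 2.70 on the log2 scale (limma, adjusted p = 0.000869) and *BomS5* fell by 1.78 (limma, adjusted p = 0.0102). *BomBc2* fell by 1.91 (limma, adjusted p = 0.00926), but did not pass without control replicate 2 or *RasV12* replicate 1, with an adjusted p of at most 0.0583. *BomS2*, *BomS5* and *BaraA1* passed with any 1 of the 6 libraries left out (limma, adjusted p of at most 0.0393, 0.0499 and 0.00907). *Dso1* (−1.33) and *Dso2* (−1.66) passed by little (limma, adjusted p = 0.0399 and 0.0481), and each failed in 5 of these 6 fits, with an adjusted p of at most 0.164 and 0.199. *Drs* shares the direction of these genes, whose controls were uneven, with the summed level at 1890, 2236 and 590 in control replicates 1, 2 and 3.

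For the genes of components that carry the signal, 1 gene passed in each of 3 lists, to be read against the 9.04% of all genes tested that passed as rises and the 7.7% that passed as falls. Of 15 core Imd genes, 14 were tested, 1 rose and none fell, with a median log2 fold change of 0.31. The gene that rose was *Rel*, which encodes Relish, with 77, 56 and 43 normalized counts in control against 132, 100 and 119 in *RasV12* replicates. Its log2 fold change of 1.01 had a limma adjusted p of 0.0303, but it did not pass with any library other than control replicate 1 left out, with an adjusted p of at most 0.108. Of 15 negative regulators and recognition proteins of Imd, 12 were tested and *PGRP-SD*, a secreted peptidoglycan recognition protein, rose alone. It had 0, 11 and 4 normalized counts in control against 117, 108 and 93 in *RasV12* replicates (log2 fold change 4.77, limma, adjusted p = 0.000375). This value ranged from 3.78 with control replicate 1 left out to 5.57 with control replicate 2 left out.

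Of 10 core Toll genes, 9 were tested and none rose. *Myd88*, the adaptor of the Toll receptor, fell by 1.15 on the log2 scale, with 138, 90 and 173 normalized counts in control against 61, 50 and 63 (limma, adjusted p = 0.0185). It did not pass without control replicate 1 or *RasV12* replicate 2, with an adjusted p of at most 0.0824. The median log2 fold change of the Toll core was 0.08. These lists were described by counts alone, and the difference between them was not tested.

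**Figure D4:**
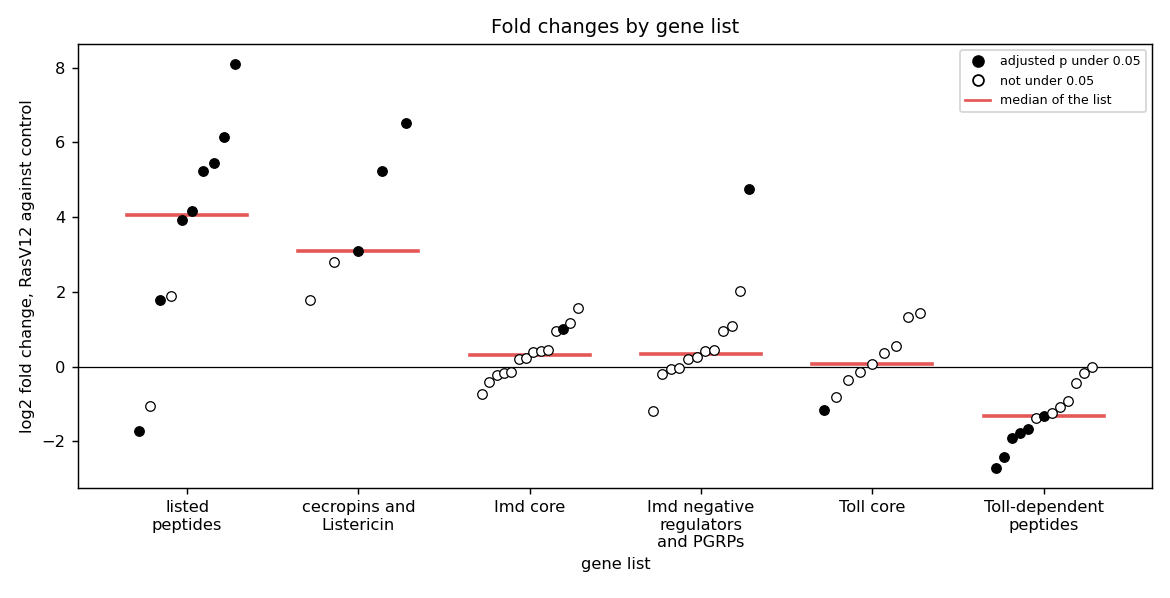
Log2 fold change between RasV12 and control hindguts for the tested genes of each list (filled where the adjusted p was under 0.05, open where it was not), with the median of each list as a red line. The 10 listed peptides have a median of 4.05, the cecropins with *Listericin* 3.10, the Imd core 0.31 and the Toll-dependent peptides −1.33.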

How the data were processed

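QuantSeq 3′ libraries were read by the authors on an Ion Proton instrument and mapped to dm6, first with hisat2 and then with bowtie2 for what had not mapped. Expression was compared by the authors in metaseqR2 with DESeq and its utr setting. Versions, and how reads that match several genes were treated, are not given in the sources used here. The deposited values are a score per gene: read counts that the authors scaled by 1 factor per library and rounded to whole numbers. Between 1 and 60, 17 whole numbers never occur in control replicate 1, so these are not raw counts and no negative binomial model was run. Rows stand in 6 blocks. *AttA*, *AttB*, *AttD*, *DptB* and *Dro* are in the first, *DptA*, *Mtk*, *Def* and *Drs* in a block of 817 genes of which 807 have under 500 bp of exon, and *AttC* in the last.

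All 6 libraries were grouped by genotype as labelled. The test was limma (version 3.58.1, R 4.3.3) on log2(value + 1), two-sided and with a variance trend, with Benjamini-Hochberg adjustment over the 7155 genes tested. Of 17617 identifiers, 17520 matched the Ensembl 115 annotation of BDGP6.54 (dm6 coordinates), which gave names and positions. The procedure was tested on simulated data. Alternatives were pseudocounts of 0.5 and 5, other filters, scalings and variance models, limma-voom, a replicate block, each library left out and, chosen after seeing the data, limma-voom on recovered reads.

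All 10 genes are named. From other lists, up to 6 genes with an adjusted p under 0.05 were named, by size of change. *CecA1*, other markers and overlapping genes were named, and the muscle list was added, after values were seen. The members, lists and rules were chosen with earlier results of these data known.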

Additional observations from a re-analysis of the deposited data

How the results depend on the processing

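Of the 10 genes, 8 passed an adjusted p of 0.05. This count was 7 to 9 with 1 library left out, 7 with limma-voom on recovered reads and 6 without a variance trend. With limma's unadjusted p under 0.05 and a log2 change over 1, the study's thresholds, it was 9 (8 of them rises, *Dro* added). Among genes of at least 500 bp it was 4, since this minimum removes *DptA*, *Mtk*, *Def* and *Drs*. The study used DESeq p-values and left out genes under 500 bp, so these genes were outside its test. With 1 library left out, the log2 fold change of *AttC* ran from −2.10 to 0.033, reversing without control replicate 2. Over all 7155 genes, 647 passed as rises and 551 as falls, but 427 and 277 without a variance trend. Without *RasV12* replicate 2 these counts were 352 and 290 of 7043 genes tested. Without *RasV12* replicate 1 they were 404 and 391 of 7057. *AttA*, *AttB*, *AttD*, *DptA*, *DptB*, *Def* and the sum of *AttA* and *AttB* kept their direction and passed under every alternative in which they were tested. For *AttD*, which entered the main test through its *RasV12* libraries alone, this is a description. *Mtk* did not pass without a variance trend (limma's adjusted p = 0.0631) or with limma-voom on recovered reads (0.069). The cause was not tested. It is not stated whether the replicate numbers pair the libraries. The deviations of same-numbered libraries had correlations of −0.0464, 0.00408 and −0.0122 across 7155 genes, which are not independent. Such values would reveal only a strong shared effect, so they do not settle the pairing. With the replicate number as a block 9 genes passed, *Dro* being added (limma's adjusted p = 0.0285). Low control values rest on few reads, since 1 unit was 0.712 reads in control replicate 1. Among the other genes named, the replicate block ended the call of *Dso2* (limma, adjusted p = 0.055). Leaving out the variance trend ended the calls of *Rel*, *Myd88*, *BomS2*, *BomBc2*, *Dso1*, *Dso2*, *Yp1*, *Yp2*, *Irk1* and *Send1* (limma, adjusted p from 0.0615 to 0.147).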

Other observations

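Beside *AttD* on chromosome 3R, the nearest genes with any value were a threonine tRNA gene 388 bp before it and *CG14325* 1040 bp after it, each with 1 normalized count in *RasV12* replicate 1 and none in the other 5 libraries. Next to *Drs* on 3L, *kst*, which encodes a spectrin, had 152, 130 and 92 normalized counts in control against 195, 142 and 111 in *RasV12* replicates, and *Ythdc1*, 508 bp after *Drs*, had 17, 20 and 13 against 14, 17 and 10. The groups overlapped for both. Beyond the diptericin pair, *sano* had 39, 13 and 12 in control and 5, 14 and 2 in *RasV12* replicates, also with overlap.

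The genes whose log2 values followed *AttD* most closely over the 6 libraries were *CG13841*, *CG6125*, *CG3604*, *insc* and *hiro*, each with a Pearson r of 0.997 or above. *hiro* was listed at 0 in all 3 control libraries and had 69, 60 and 50 normalized counts in *RasV12* replicates. *CG3604* was high in both, with 2265, 2135 and 2088 in control and 10545, 11239 and 11057 in *RasV12* replicates. In 244 of 7145 genes r was at least 0.95, and r is given as a description, since the 6 points fall into the same pair of genotypes for every gene. For *Drs*, 26 genes reached 0.95, led by *hlk* (0.991) and *CG42521* (0.990), which had 13, 59 and 59 normalized counts in control against 1, 8 and 4 in *RasV12* replicates.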
